A study of Mus musculus with 22 samples.

Results

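The replication-dependent histone genes were taken as the gene symbols that begin with Hist1h, Hist2h, Hist3h or Hist4h followed by a histone class (1, 2a, 2b, 3 or 4) and that had at least 30 counts in total over the 12 RNA-seq libraries. Of 70 such symbols among the 52535 in each count table, 40 met this threshold and held 5155 of the 5470 counts. By symbol, 5 of the 40 members are linker histones of class H1, 6 are of class H2A, 13 of H2B, 7 of H3 and 9 of H4. GENCODE M21 annotates 1 of them, Hist1h2aj, as an unprocessed pseudogene and the others as protein-coding. The gene cluster Hist1 on chromosome 13 holds 35 of them, Hist2 on chromosome 3 holds 2, Hist3 on chromosome 11 holds 2 and Hist4 on chromosome 6 holds 1. Members were chosen on their total counts, so their levels are a description. Just inside the threshold stood Hist1h2af with 30 counts and Hist1h2aj, Hist1h2bl and Hist1h4a with 33 each. Just outside it stood Hist2h3b with 29 counts and Hist1h2al and Hist1h4k with 27 each. Of the 30 symbols left out, 4 had no count in any library.

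By the sample labels, all 12 libraries came from E14, an established line of mouse embryonic stem cells, 1 day after leukaemia inhibitory factor and both kinase inhibitors had been withdrawn and 2 µM retinoic acid had been added. The design text of the series names only embryonic stem cells for the RNA-seq and no retinoic acid, and the sample labels are followed here. The genotypes were wild type (WT) and the deletion lines named E1-KO, D-KO and E2-KO, each with 3 libraries that the series calls biological replicates. The series addresses enhancers of the HoxB genes, and neither E1, E2 nor D-KO is spelled out in the labels. The labels do not say whether a genotype is 1 clone or whether its libraries came from separate cultures. A p-value thus covers only how far these libraries spread, which may be technical.

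Replication-dependent histone genes supply the histones that package newly copied DNA, and their mRNAs are made mostly in S phase. Their pre-mRNAs are cut after a conserved stem-loop and, in dividing cells, end there without a poly(A) tail. Stem-loop binding protein (Slbp) and the U7 snRNP carry out that step. Some of these genes can also be read through the stem-loop to a downstream poly(A) site, a form that is known from cells leaving the cell cycle. The labels name total RNA as the starting material. Whether poly(A) RNA was then selected is not given in the sources used here, and the form of histone mRNA behind the counts cannot be stated.

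A stem-loop of 6 paired bases and 4 loop bases was found by sequence within 150 bases after the stop codon of 36 members, 24 to 55 bases behind the stop. The genome was GRCm38.p6 from RefSeq and the gene models were GENCODE M21. None was found for Hist2h2be, Hist1h3g, Hist1h4a or Hist1h2aj, the last of which has no annotated stop codon. There were 5 distinct versions of its 16 bases, carried by 23, 5, 4, 2 and 2 members. The lines below show the 3′ ends of 7 members that together carry the 5 versions, with the stem-loop in capitals and 5 bases on each side. They are read 5′ to 3′ on the strand of the gene.

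Hist1h2bc: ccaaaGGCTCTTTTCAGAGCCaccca
Hist1h1c: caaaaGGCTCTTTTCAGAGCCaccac
Hist1h2ae: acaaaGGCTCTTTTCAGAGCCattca
Hist1h3c: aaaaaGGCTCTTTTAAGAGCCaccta
Hist1h4d: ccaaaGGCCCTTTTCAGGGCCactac
Hist1h4i: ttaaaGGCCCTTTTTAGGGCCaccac
Hist1h4b: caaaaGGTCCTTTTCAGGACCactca

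Hist1h2bc, Hist1h1c and Hist1h2ae carry the version shared by 23 members, and Hist1h3c differs from it in the loop. Hist1h4d, Hist1h4i and Hist1h4b carry versions whose stems have other base pairs. The models of 19 members run at least 100 bases past the stem-loop. That of Hist1h1c runs 840 bases past it, that of Hist1h4d 770, that of Hist1h4i 330 and that of Hist1h2ae 151. The model of Hist1h2bc, the member with the most counts, ends 8246 bases of genome downstream, in another exon. The models of the other 17 members with a stem-loop end within 100 bases of it or before its end, so a read from beyond that end would not be counted if counting used these models, which is not known. Hist1h3c ends 74 bases past it, Hist1h4b 28 bases past it and Hist1h3h 41 bases short of its end.

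RefSeq promoters (GRCm38.p6) matched 35 of the 40 members. The word TATAAA of the TATA box was searched on either strand in the 250 bases upstream of the start. It was present in 17 of 35 members (48.6%), against 12.4% of all 32851 RefSeq promoters. Its position was not limited, and the only match stood 212 bases upstream in Hist1h2bp, 209 in Hist1h2bf and 198 in Hist1h2bk. These 17 are thus not a count of members with a TATA box. The box CCAAT was present in 29 of 35 (82.9%), against 33.8%. The octamer ATTTGCAT, to which POU-domain proteins such as Oct1 bind, was present in 5 of 35 (14.3%), against 1.6%. The 5 members with the octamer were 2 of the 5 H2A and 3 of the 11 H2B promoters, and CCAAT was present in 2 of 8 H4 promoters and in all matched promoters of the other classes. These matches describe letters in a window and no binding. Only exact matches were counted, so similar words, such as other TATA-like ones, were missed. The 150 bases upstream of the start are printed for 4 members that moved differently between genotypes, with those 3 motifs in capitals on either strand.

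Hist1h1c (chr13:23738657-23738806, plus strand): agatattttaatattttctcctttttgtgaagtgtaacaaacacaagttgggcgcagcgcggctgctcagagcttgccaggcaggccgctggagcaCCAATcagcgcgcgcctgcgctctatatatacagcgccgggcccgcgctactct
Hist1h1a (chr13:23763518-23763667, plus strand): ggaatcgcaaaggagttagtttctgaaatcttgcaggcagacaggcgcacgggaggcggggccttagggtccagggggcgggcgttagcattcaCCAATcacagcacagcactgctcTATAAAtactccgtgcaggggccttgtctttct
Hist1h2ae (chr13:23571221-23571370, minus strand): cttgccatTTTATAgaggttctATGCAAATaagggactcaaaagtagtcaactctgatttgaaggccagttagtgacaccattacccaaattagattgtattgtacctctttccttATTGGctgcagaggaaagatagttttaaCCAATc
Hist1h3c (chr13:23745522-23745671, minus strand): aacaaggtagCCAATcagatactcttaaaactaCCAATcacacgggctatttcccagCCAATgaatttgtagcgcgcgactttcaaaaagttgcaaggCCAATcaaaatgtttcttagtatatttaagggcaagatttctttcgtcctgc

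The promoter of Hist1h2ae is divergent, and the stretch also holds sequence upstream of Hist1h2bg on the other strand, so they share the octamer. They also share the TATAAA match, 142 bases upstream of Hist1h2ae and 43 bases upstream of Hist1h2bg. Hist1h1c and Hist1h1a are both linker histone genes with 1 CCAAT box each, at 54 and 56 bases upstream. TATAAA stands 33 bases upstream in Hist1h1a and has no exact match in the window of Hist1h1c. The stretch of Hist1h1c does hold the similar letters tatatata, so it cannot be said to lack a TATA box.

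The libraries held 9101547 to 13007735 counted reads. WT libraries lay far apart, with a chi-square per gene of 38.9 to 77.9 between libraries, whereas it was 2.21 to 3.99 within the KO genotypes. Mitochondrial reads were 1.95% to 5.88% of the counts in WT and 1.36% to 2.69% in the KO genotypes. Markers of embryonic stem cells were present everywhere, at a summed 2484 to 3244 CPM (read counts scaled to library size, here also by the trimmed mean of M-values, TMM) in WT and 3862 to 4579 in the KO genotypes. Markers of fibroblasts, which can be present as feeder cells, summed to 18.8 to 33.7 CPM, with Col3a1 at 0 in 7 libraries and Dcn at 0 in 11. Markers of primitive endoderm summed to 134 to 136 CPM for WT, 26.6 to 30.6 for E1-KO, 63.4 to 63.9 for E2-KO and 74.5 to 77.7 for D-KO. Neural markers summed to 3.13 to 15.4 CPM and mesoderm markers to 19.02 to 37.8 over the 12 libraries. The part of these differences in the results on histone genes was not tested.

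Histone counts were few. Summed over the 40 members, the level was 44.5, 71.1 and 45.5 CPM for WT replicates 1 to 3, 33.6, 36.2 and 31.8 for E1-KO, 43.0, 34.3 and 37.8 for E2-KO, and 39.5, 41.7 and 38.2 for D-KO. All 9 KO libraries lay below all 3 WT libraries, and WT replicate 2 was the highest of the 12. The WT mean was 53.7 ± 15.1 CPM (SD, n = 3), with 33.8 ± 2.22 for E1-KO, 38.4 ± 4.37 for E2-KO and 39.8 ± 1.77 for D-KO. With library totals as the only scaling, WT replicates 1 and 3 stood at 43.2 and 40.3 CPM, both inside the range of E2-KO (34.9 to 44.1), and WT replicate 3 also lay inside that of D-KO (37.0 to 40.6). Statements below on libraries that do or do not overlap refer to TMM scaling unless library totals are named. In bulk RNA, fewer cells in S phase and less histone mRNA per cell cannot be told apart.

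Those sums hide opposite movements. Hist1h2bc and Hist1h1c held 1263 and 733 of the 5155 counts, and they were set apart after their values were seen. Together they stood at 13.5, 17.1 and 12.4 CPM for WT and at 9.10, 8.56 and 9.38 for E1-KO. In E2-KO they stood at 24.7, 17.3 and 22.1 CPM, and in D-KO at 18.2, 22.6 and 21.1. E1-KO lay below WT in all libraries, and E2-KO and D-KO lay above it. With library totals E1-KO still lay below, but WT replicate 2 at 17.8 CPM lay just above E2-KO replicate 2 at 17.6 and D-KO replicate 1 at 17.7, so E2-KO and D-KO overlapped WT. The other 38 members went a different way, with 31.0, 54.0 and 33.2 CPM for WT, 24.5, 27.6 and 22.4 for E1-KO, 18.3, 17 and 15.7 for E2-KO, and 21.3, 19.1 and 17.1 for D-KO. Here the libraries of all KO genotypes lay below those of WT, and those of E2-KO and D-KO lay below those of E1-KO, under both scalings.

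The share of the histone counts held by Hist1h2bc and Hist1h1c was alike in WT and E1-KO and larger in E2-KO and D-KO. It was 24.1% to 30.3% in the WT libraries and 23.7% to 29.5% for E1-KO, but 50.5% to 58.5% for E2-KO and 46.0% to 55.4% for D-KO. The 95% Clopper-Pearson intervals of single libraries, which cover counting error only, reached no higher than 34.9% for WT and E1-KO and no lower than 41.0% for D-KO and 44.9% for E2-KO. This share is a ratio within a library, so it does not depend on the scaling between libraries.

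**Figure D1:**
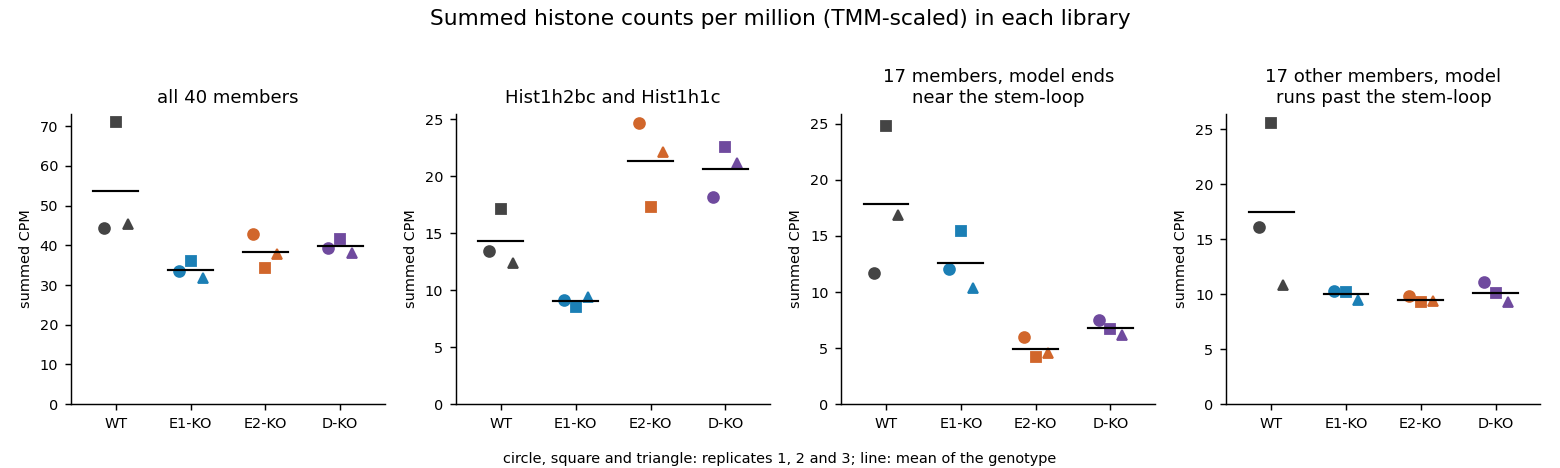
Summed level of histone genes in each library (vertical axis, TMM-scaled CPM from 0) by genotype (horizontal axis), for all 40 members, for Hist1h2bc with Hist1h1c, for the 17 members whose gene model ends near the stem-loop, and for the 17 others whose model runs past it. Symbols are replicates 1 to 3 and lines are means; Hist1h2bc with Hist1h1c is at 17.3 CPM or more in E2-KO and D-KO and at 9.38 or less in E1-KO, while the 17 members ending near the stem-loop are at 7.47 CPM or less in E2-KO and D-KO.

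Linker histones (H1) bind the DNA between nucleosomes. Hist1h1c (newer symbol H1f2, chr13:23738808-23740367, plus strand, a single exon) was the most abundant of them. Its level was 3.29, 6.38 and 5.70 CPM for WT, 3.22, 2.05 and 2.22 for E1-KO, 7.18, 5.32 and 9.11 for E2-KO and 7.97, 10.2 and 9.25 for D-KO. All E1-KO libraries lay below WT (with library totals they overlapped), all D-KO libraries above it, and E2-KO overlapped WT. By edgeR's quasi-likelihood test with Benjamini-Hochberg adjustment over all 16765 genes tested, the source of every adjusted p given for a gene, it fell in E1-KO by 1.05 ± 0.30 on the log2 scale (standard error, adjusted p = 0.0152). The fall in E1-KO was lost without E1-KO replicate 2 (adjusted p = 0.0663) or 3 (0.0602), in the fit of the compared genotypes alone (0.0760) and with limma (0.249). Hist1h1c rose in D-KO by 0.83 ± 0.27 (adjusted p = 0.0392), and its difference in E2-KO was 0.49 ± 0.27 (adjusted p = 0.178). The difference between D-KO and E1-KO was 1.87 ± 0.29 (adjusted p = 0.000959) and held in all 22 alternative analyses. The rise in D-KO held in 10 of 22, with an adjusted p of 0.133 once trends with GC content and gene length had been removed together with a replicate block. It was lost with limma (adjusted p = 0.0870) and with a replicate block (0.0540), and without WT replicate 1 (0.111), E1-KO replicate 3 (0.0524), E2-KO replicate 1 (0.0555) or any of the D-KO libraries (0.0603, 0.131 and 0.0970 without replicates 1, 2 and 3). It was also lost with WT replicate 2 as the only WT library (0.119), in the fit of the compared genotypes alone (0.105) and with the trends removed without a block (0.133).

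Hist1h1a (H1f1, chr13:23763666-23764406, plus strand, 1 exon) behaved otherwise. Its level was 1.96, 3.86 and 3.45 CPM for WT, 0.948, 2.14 and 1.31 for E1-KO, 0.429, 0.209 and 0.569 for E2-KO, and 0.707, 1.42 and 0.682 for D-KO. All libraries of E2-KO and D-KO lay below all WT libraries, while E1-KO replicate 2 lay inside the WT range. It fell in E2-KO by 2.93 ± 0.51 (adjusted p = 0.000679) and in D-KO by 1.73 ± 0.44 (adjusted p = 0.0122), and its difference in E1-KO was -1.08 ± 0.42 (adjusted p = 0.0591). The call in E2-KO held in all 22 alternatives. That in D-KO was lost without D-KO replicate 1 (adjusted p = 0.0599) or replicate 3 (0.0611) and with limma (0.0993). All 50-base and 100-base stretches of the Hist1h1a transcript are absent from the M21 transcripts of other genes, whereas 91.5% of the 50-base stretches of Hist1h1c are. Sequence outside annotated transcripts was not searched.

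Hist1h1d, Hist1h1b and Hist1h1e, the other H1 members, stood at 1.78 CPM or less in every library. Hist1h1d differed from WT by -1.31 ± 0.57 for E1-KO, -0.98 ± 0.56 for E2-KO and -1.74 ± 0.61 for D-KO, and its adjusted p was 0.0911, 0.188 and 0.0524. Hist1h1e overlaps Hist1h2be on the same strand, so their reads can be split or dropped.

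H2A forms dimers with H2B at the faces of the nucleosome. Hist1h2ae (H2ac8, chr13:23570517-23571220, minus strand, 1 exon) held 287 of the 487 H2A counts. Its level was 3.81, 6.97 and 1.31 CPM for WT, 2.66, 2.51 and 3.63 for E1-KO, 1.179, 1.15 and 0.664 for E2-KO and 0.606, 0.708 and 1.17 for D-KO. Every E2-KO and D-KO library lay below every WT and E1-KO library, and E1-KO lay within the wide WT range. With library totals E2-KO overlapped WT at WT replicate 3. It fell by 2.07 ± 0.51 for E2-KO (adjusted p = 0.00680) and by 2.32 ± 0.52 for D-KO (adjusted p = 0.00549), both in all 22 alternatives. Its difference in E1-KO was -0.50 ± 0.44 (adjusted p = 0.398). Between D-KO and E1-KO it was -1.82 ± 0.53 (adjusted p = 0.0328), a call lost on leaving out any of those 6 libraries, with adjusted p from 0.0609 to 0.116.

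Hist1h2ak, the H2A gene with the next highest level, stood at 0.412, 0.816 and 0.357 CPM for WT, 1.14, 1.12 and 0.403 for E1-KO, 0.322, 0.417 and 0 for E2-KO, and 0.101, 0.101 and 0.195 for D-KO. All D-KO libraries lay below WT and below E1-KO. At 0 counts in E2-KO replicate 3, up to 0.285 CPM (3 counts) would not be detectable; such floors cover counting error only. This gene did not pass the filter on low counts and was not tested. All 6 H2A members overlap a gene annotated on the opposite strand. Whether counting used the strand is not given in the sources used here, and without it reads from these partners cannot be told apart from H2A reads.

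Among the H2B genes, Hist1h2bc (H2bc4, chr13:23684199-23692908, plus strand, 2 exons) held 1263 of 2026 counts. Its level was 10.2, 10.8 and 6.65 CPM for WT, 5.88, 6.51 and 7.16 for E1-KO, 17.5, 12 and 13 for E2-KO and 10.2, 12.3 and 11.9 for D-KO. E2-KO lay above all WT libraries, and E1-KO lay below all libraries of E2-KO and D-KO. It rose in E2-KO by 0.61 ± 0.20 (adjusted p = 0.0312), and its differences were -0.51 ± 0.21 for E1-KO (adjusted p = 0.0764) and 0.31 ± 0.20 for D-KO (adjusted p = 0.298). The rise in E2-KO was lost in 5 of 22 alternatives, namely with WT replicate 2 as the only WT library (adjusted p = 0.145), without WT replicate 3 (0.0873) or E2-KO replicate 1 (0.158), in the fit of the compared genotypes alone (0.130) and with limma (0.198). The E1-KO libraries differed from E2-KO by -1.12 ± 0.21 (adjusted p = 0.0260), and D-KO from E1-KO by 0.82 ± 0.21 (adjusted p = 0.0182).

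The other 12 H2B genes summed to 7.41, 10.2 and 9.03 CPM for WT, 5.41, 4.93 and 4.74 for E1-KO, 5.36, 5.53 and 5.31 for E2-KO and 6.26, 5.26 and 4.58 for D-KO. All 9 KO libraries lay below all WT libraries, and the KO genotypes overlapped. Hist1h2bk (H2bc12, chr13:22035870-22036345, plus strand) fell in D-KO by 2.17 ± 0.68 (adjusted p = 0.0330), a call kept in 14 of 21 alternatives and lost with a replicate block (adjusted p = 0.0559), with limma (0.106), without WT replicate 1 (0.0523) or 2 (0.126) and without D-KO replicates 1, 2 or 3 (0.0589, 0.128 and 0.0904). Of its 50-base stretches 25.8% are absent from the M21 transcripts of other genes, so part of its reads may have been dropped as multiply aligned. Hist2h2be (H2bc21, chr3:96221119-96223738, plus strand), which lies in cluster Hist2, stood at 1.54, 1.26 and 2.85 CPM for WT, 0.853, 0.372 and 1.01 for E1-KO, 0.750, 1.15 and 0.380 for E2-KO and 0.505, 1.01 and 0.682 for D-KO. All KO libraries lay below all WT libraries. Its differences were -1.32 ± 0.51, -1.29 ± 0.51 and -1.33 ± 0.51 for E1-KO, E2-KO and D-KO, with adjusted p of 0.0587, 0.0629 and 0.0749.

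H3 and H4 form the tetramer at the core of the nucleosome. The 7 H3 genes summed to 6.89, 15.7 and 8.56 CPM for WT, 6.83, 10.0 and 7.97 for E1-KO, 2.68, 4.17 and 2.94 for E2-KO and 4.85, 4.25 and 4.38 for D-KO. E1-KO overlapped WT, whereas every E2-KO and D-KO library lay below every WT and E1-KO library, and every E2-KO library below every D-KO library. With library totals E2-KO and D-KO overlapped, at 2.75 to 4.25 CPM and 4.14 to 4.73 CPM. Hist1h3c (H3c3, chr13:23744973-23745602, minus strand, 1 exon) stood at 1.96, 3.86 and 2.97 CPM for WT, 1.42, 2.79 and 2.72 for E1-KO, 0.429, 0.522 and 0.664 for E2-KO and 0.807, 0.809 and 0.877 for D-KO. Every E2-KO library lay below every D-KO library, and both lay below all WT and E1-KO libraries. Hist1h3c fell in E2-KO by 2.45 ± 0.42 (adjusted p = 0.000628, in all 22 alternatives) and in D-KO by 1.83 ± 0.39 (adjusted p = 0.00415). The latter call was lost with limma alone (adjusted p = 0.0738). In E1-KO its difference from WT was -0.36 ± 0.35 (adjusted p = 0.444).

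Hist1h3e (H3c6, chr13:23561534-23562369, minus strand) fell in E2-KO by 1.89 ± 0.48 (adjusted p = 0.00808), a call kept in all 22 alternatives, and differed by -1.26 ± 0.45 for D-KO (adjusted p = 0.0548). Hist1h3g (H3c8, chr13:23535422-23535951, plus strand) stood at 1.54, 1.85 and 1.07 CPM for WT, 0.759, 1.21 and 1.31 for E1-KO, 0.536, 1.57 and 0.474 for E2-KO and 1.92, 1.11 and 0.682 for D-KO. The genotypes overlapped, and its differences from WT were -0.47 ± 0.50, -0.83 ± 0.52 and -0.29 ± 0.49 for E1-KO, E2-KO and D-KO. Hist1h3h (H3c10, chr13:21717659-21718069, plus strand) stood at 0.617, 1.56 and 0.238 CPM for WT, 1.61, 1.58 and 1.21 for E1-KO, 0.750, 0.522 and 0.759 for E2-KO and 0.505, 0.304 and 0.292 for D-KO. E1-KO lay above E2-KO and D-KO in all libraries, and E2-KO above D-KO. D-KO differed from E1-KO by -2.01 ± 0.58 (adjusted p = 0.0319), a call lost on leaving out any of those 6 libraries, with adjusted p from 0.0655 to 0.121. Only 6.08% of the 50-base stretches of Hist1h3h are absent from the M21 transcripts of other genes, so its counts may be a small part of its reads.

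Hist1h4i (H4c9, chr13:22040636-22041362, minus strand, 1 exon) was the most abundant H4 gene. Its level was 2.47, 4.00 and 1.07 CPM for WT, 0.474, 1.12 and 0.504 for E1-KO, 1.93, 2.71 and 1.33 for E2-KO and 4.14, 1.72 and 1.85 for D-KO. E1-KO lay below E2-KO and D-KO in all libraries and overlapped WT at WT replicate 3. It fell in E1-KO by 1.88 ± 0.56 (adjusted p = 0.0186), and its differences were -0.39 ± 0.49 for E2-KO and -0.01 ± 0.48 for D-KO. The fall in E1-KO was lost with limma (adjusted p = 0.0509), in the fit of the compared genotypes alone (0.0593), without WT replicate 2 (0.0715) and without E1-KO replicate 1 (0.0768) or 3 (0.0720). Hist1h4d (H4c4, chr13:23581598-23582735, plus strand, 1 exon) stood at 1.03, 2.08 and 0.713 CPM for WT, 1.23, 0.558 and 0.807 for E1-KO, 0.322, 0.313 and 0.380 for E2-KO and 0.303, 0.304 and 0.0974 for D-KO. E2-KO and D-KO lay below all libraries of WT and E1-KO. It fell by 1.96 ± 0.57 for E2-KO (adjusted p = 0.0170) and by 2.50 ± 0.61 for D-KO (adjusted p = 0.00932). The call in E2-KO was lost without WT replicate 2 (adjusted p = 0.0868), E2-KO replicate 1 (0.0598) or E2-KO replicate 2 (0.0614) and with limma (0.117), and that in D-KO without D-KO replicate 3 (0.0524) and with limma (0.0613).

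**Figure D2:**
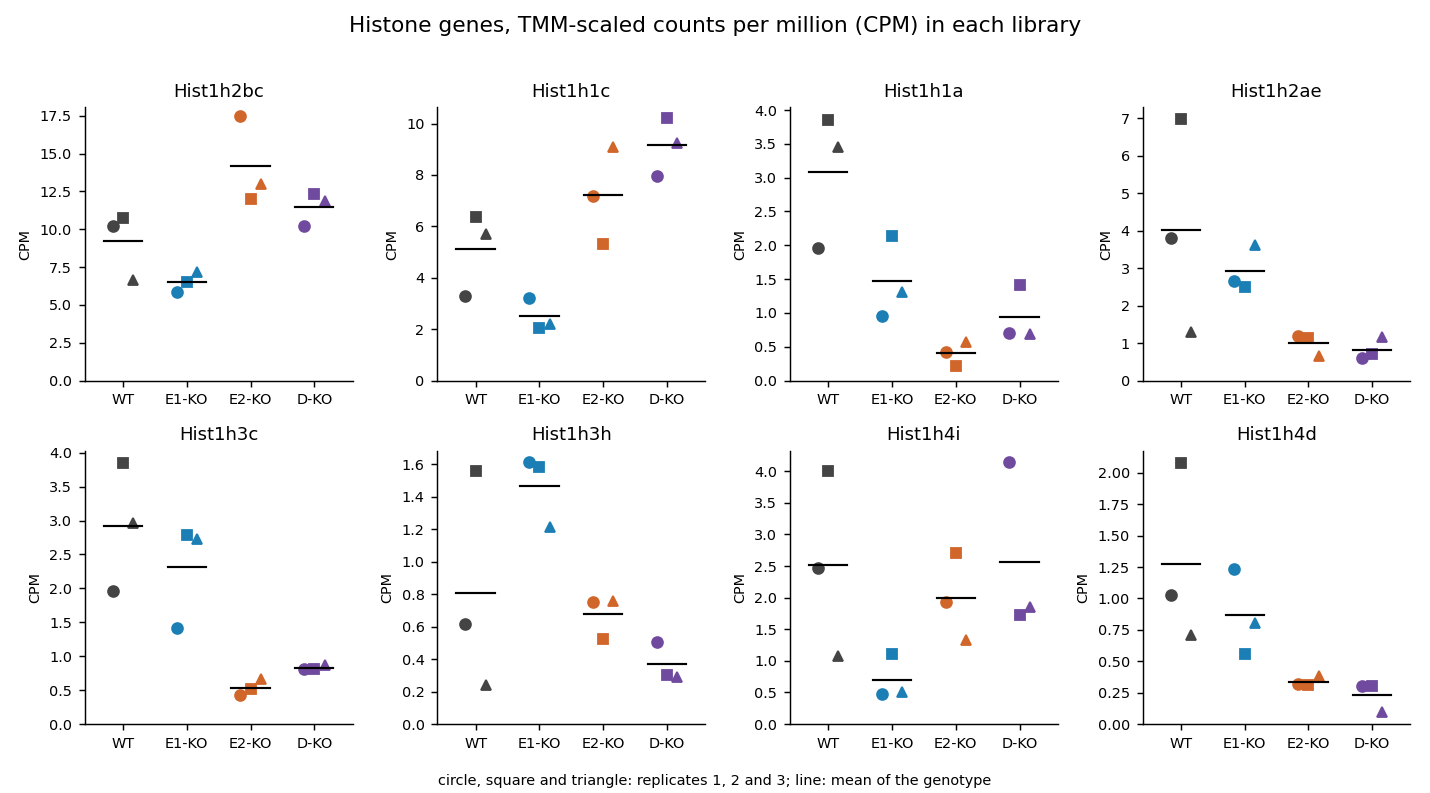
Level of 8 histone genes in each library (vertical axis, TMM-scaled CPM from 0) by genotype (horizontal axis); symbols are replicates 1 to 3 and lines are means. Hist1h2bc and Hist1h1c have their lowest means in E1-KO, while Hist1h1a, Hist1h2ae, Hist1h3c and Hist1h4d are lower in all E2-KO and D-KO libraries than in all WT libraries, which for Hist1h2ae in E2-KO does not hold with library totals.

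Counted over the genes tested, 14 members passed the filter on low counts and 26 did not. In E1-KO against WT, 0 of 14 rose (15.7% of all genes tested rose) and 2 of 14 fell (18.5% of all fell), namely Hist1h1c and Hist1h4i. In E2-KO, 1 rose (16.7% of all), Hist1h2bc, and 5 fell (18.6% of all), namely Hist1h3c, Hist1h1a, Hist1h2ae, Hist1h3e and Hist1h4d. In D-KO, 1 rose (10.6% of all), Hist1h1c, and 5 fell (12.2% of all), namely Hist1h3c, Hist1h2ae, Hist1h4d, Hist1h1a and Hist1h2bk. The 3 comparisons share the WT libraries. Nothing is read from these counts against the background, because members of such low counts could pass the filter through the genotypes in which they are high. Hist1h3c, Hist1h4d and Hist1h2bk stood at 0.877 CPM or less in all E2-KO and D-KO libraries, and among these 6 libraries Hist1h1a and Hist1h3e exceeded that level only in D-KO replicate 2. These tests use a spread shared by all genotypes; fitted apart, the median tagwise dispersion of WT libraries was 0.0928 and that of KO libraries 0.00616.

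Members below the filter can be read by whether the libraries of a pair of genotypes overlap. In E1-KO, 0 of 40 members lay above all WT libraries (21% of the genes tested did) and 8 lay below them (20.1%). In E2-KO, 2 lay above WT (21.2%) and 14 below (19.7%), and in D-KO 2 lay above (16.6%) and 12 below (16.2%). Between the KO genotypes, D-KO lay above E1-KO for 7 members (27.3%) and below it for 7 (27.1%). D-KO lay above E2-KO for 4 (22.8%) and below it for 5 (23%). E1-KO lay above E2-KO for 11 (15.7%) and below it for 8 (19%). The 40 members include 26 that did not pass the filter, whereas the shares in brackets are over genes that passed it. Members were also chosen on total counts, of which WT gave 1774 of 5155. Nothing is therefore read from these counts against those shares. With library totals, Hist1h1c and Hist1h2af no longer lay below WT in E1-KO, nor Hist1h2ae in E2-KO, and Hist1h2bq no longer lay above WT in E2-KO. The 8 members lower in E1-KO than in WT under TMM were Hist1h1b, Hist1h1c, Hist1h1d, Hist1h2af, Hist1h2be, Hist1h3a, Hist1h4n and Hist2h2be. Hist1h1b, Hist1h1d, Hist1h3a, Hist1h4n and Hist2h2be lay below WT in all 3 KO genotypes.

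**Figure D3:**
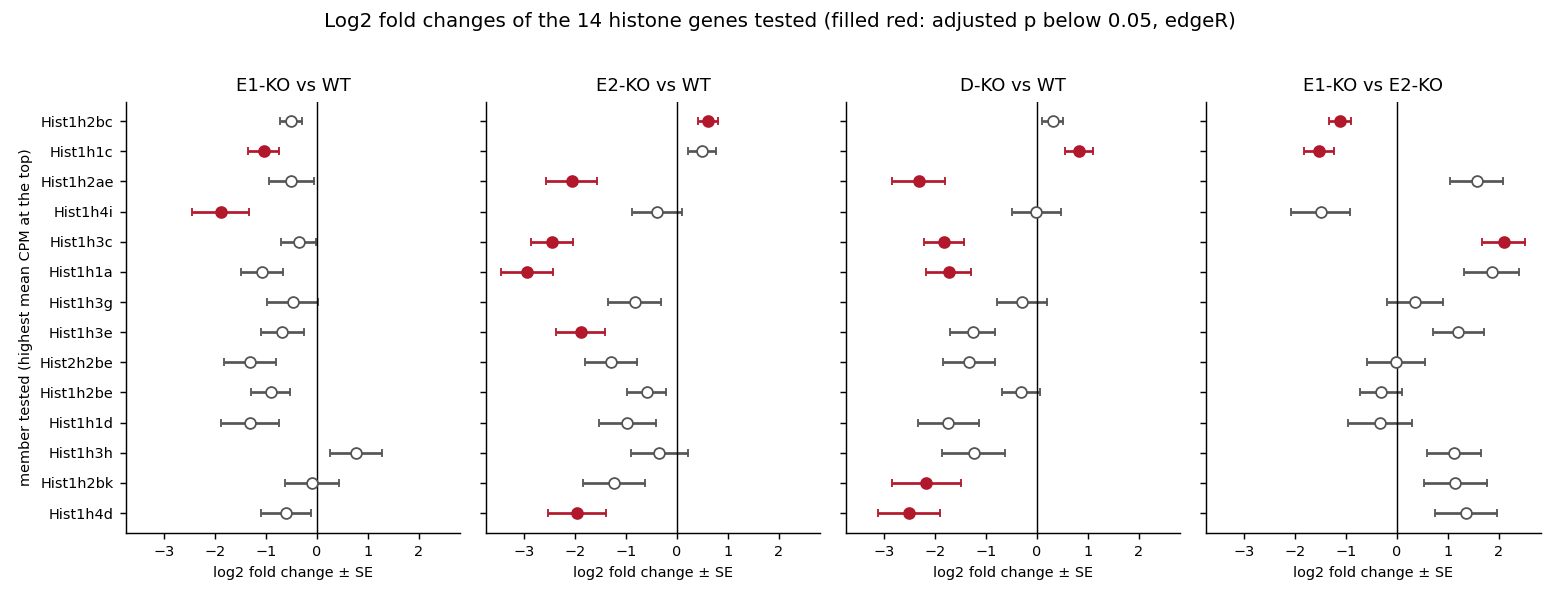
Log2 fold changes with standard errors (horizontal axis) of the 14 histone genes tested (vertical axis, ordered by mean CPM) for each KO genotype against WT and for E1-KO against E2-KO; filled red points have an adjusted p below 0.05 by edgeR. Hist1h2bc and Hist1h1c lie right of 0 for E2-KO and D-KO and left of it in E1-KO, opposite to Hist1h3c and Hist1h2ae in the E1-KO against E2-KO panel.

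Between E1-KO and E2-KO, 1 of 14 members was higher in E1-KO (0.322% of all genes tested were) and 2 were lower (0.274% of all). Nothing is read from these counts against those shares either, because members could pass the filter through the genotypes in which they are high. Hist1h3c, for example, had 4, 5 and 7 counts in E2-KO and 15, 30 and 27 in E1-KO. Hist1h3c was higher in E1-KO by 2.09 ± 0.43 (adjusted p = 0.0399), while Hist1h2bc was lower by 1.12 ± 0.21 (adjusted p = 0.0260) and Hist1h1c by 1.53 ± 0.29 (adjusted p = 0.0290). Those calls depend on single libraries. Without E1-KO replicates 1, 2 or 3, E2-KO replicates 1 or 3, or D-KO replicates 2 or 3, no member was called, and without E2-KO replicate 2 or D-KO replicate 1, 1 member was. The share of all genes called was also lower in those fits, at 0.0929% to 0.383% instead of 0.597%. The fit on the 6 libraries of E1-KO and E2-KO alone, which leaves out the WT spread, called 5 of 9 members tested, with 21.4% of all genes called. Hist1h1a, at 1.86 ± 0.54, Hist1h2ae, at 1.56 ± 0.52, and Hist1h4i, at -1.50 ± 0.58, did not pass the test over all 12 libraries, with adjusted p of 0.179, 0.244 and 0.340.

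D-KO differed from E1-KO in 6 of 14 members. Hist1h1c, Hist1h2bc and Hist1h4i were higher in D-KO (8.43% of all genes tested were), and Hist1h3c, Hist1h3h and Hist1h2ae were lower (7.52% of all). For the same reason nothing is read from these counts against the shares. Hist1h3h, for example, had 5, 3 and 3 counts in D-KO and 17, 17 and 12 in E1-KO. Hist1h4i was higher in D-KO by 1.87 ± 0.56 (adjusted p = 0.0372), and Hist1h3c was lower by 1.47 ± 0.40 (adjusted p = 0.0229). Of these calls only that of Hist1h1c held on leaving out any library, and 1 to 3 of 17 to 19 members tested were called without any one of the E1-KO or D-KO libraries. In those fits the share of all genes called was also lower, at 6.82% to 8.32% instead of 15.9%. D-KO differed from E2-KO in no member (1.84% of all genes tested were higher and 2.64% lower). At an unadjusted p below 0.05 edgeR also called 0 of 14, and at their adjusted thresholds DESeq2 called 0 of 13 members (6.95% of all genes) and limma 0 of 14 (34.5% of all genes). The differences ranged from -0.93 ± 0.78 for Hist1h2bk to 1.2 ± 0.58 for Hist1h1a, whose adjusted p was 0.250, so changes of that size could not be told from no change.

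The interaction, the difference of D-KO from WT minus the sum of the differences of E1-KO and E2-KO, was above 0 in 3 of 14 members (18.1% of all genes tested) and below 0 in 0 (17.1% of all), and 3 of 14 is near the background. It was 2.28 ± 0.71 for Hist1h1a (adjusted p = 0.0233), 1.39 ± 0.40 for Hist1h1c (adjusted p = 0.0155) and 2.26 ± 0.75 for Hist1h4i (adjusted p = 0.0312). For Hist1h1a the difference of D-KO from WT was -1.73, against -1.08 for E1-KO (not called) and -2.93 for E2-KO. For Hist1h4i the difference of D-KO from WT was -0.01 ± 0.48, against -1.88 ± 0.56 for E1-KO.

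Where the gene model ends went with how the summed members differed between genotypes, a split that was made after values had been seen and that has no test. Single members did not all follow it. Of the 5 members called lower in E2-KO than in WT, Hist1h2ae, Hist1h3e and Hist1h4d have models that run past the stem-loop. The models of Hist1h3c and Hist1h1a end near it. The 17 members whose model ends near the stem-loop summed to 11.7, 24.8 and 16.9 CPM for WT, 12.04, 15.4 and 10.4 for E1-KO, 6.004, 4.17 and 4.55 for E2-KO and 7.47, 6.68 and 6.14 for D-KO. E1-KO overlapped WT, and every E2-KO and D-KO library lay below every WT and E1-KO library, under both scalings. The 17 members whose model runs past it, other than Hist1h2bc and Hist1h1c, summed to 16.2, 25.6 and 10.8 CPM for WT, 10.3, 10.2 and 9.48 for E1-KO, 9.86, 9.28 and 9.39 for E2-KO and 11.1, 10.1 and 9.25 for D-KO. There the KO genotypes overlapped each other, and D-KO replicate 1 overlapped WT replicate 3. With library totals WT replicate 3, at 9.57 CPM, lay below all E1-KO libraries and inside the ranges of E2-KO and D-KO.

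In a fit with no filter on low counts, which gives a value for all 40 members, 34 lay below 0 for E1-KO against WT, 32 for E2-KO and 32 for D-KO, with medians of -0.78, -1.24 and -1.19 on the log2 scale. The median over all genes tested in the filtered fit was -0.01, 0.00 and -0.02. For members whose model ends near the stem-loop the medians were -0.64, -1.97 and -1.43, and for those whose model runs past it -0.84, -0.61 and -0.79. In E1-KO against E2-KO, 1 of 17 members ending near the stem-loop lay below 0 (median 1.14), as did 11 of 19 running past it (median -0.33).

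**Figure D4:**
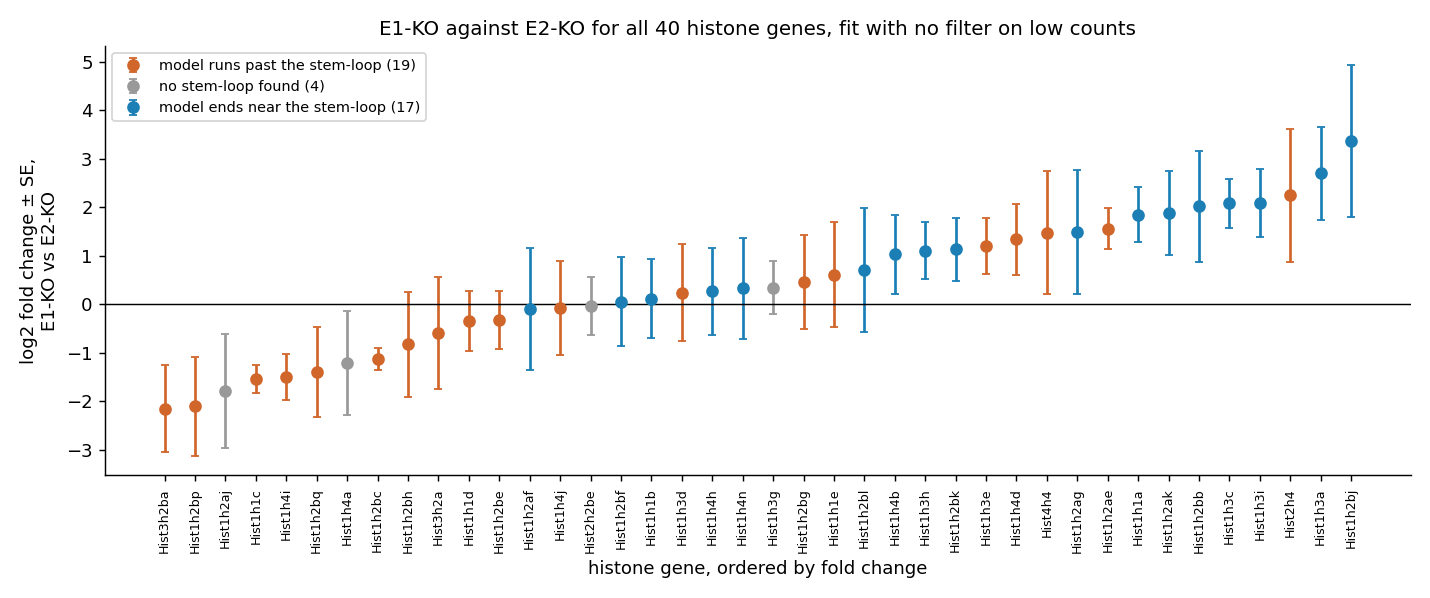
Log2 fold change of E1-KO against E2-KO with its standard error (vertical axis) for all 40 histone genes in order of the fold change (horizontal axis), from the fit with no filter on low counts; colours show whether the gene model runs past the stem-loop. Of the 17 members ending near the stem-loop, 1 lies below 0, against 11 of the 19 running past it.

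Sums by position along chromosome 13 differed between genotypes too, in a split that has no test. Of the Hist1 members, 14 lie in a block at chr13:21715763-22043676 and 21 in another at chr13:23531050-23764406, over 1000000 bases away. The 19 members of the latter block other than Hist1h2bc and Hist1h1c summed to 19.1, 34.0 and 21.2 CPM for WT, 13.5, 17.5 and 15.1 for E1-KO, 9.86, 7.51 and 7.78 for E2-KO and 9.59, 11.03 and 9.06 for D-KO. WT lay above E1-KO, and E1-KO above both E2-KO and D-KO, in all libraries and under both scalings. The 14 members of the other block summed to 8.64, 17.4 and 7.25 CPM for WT, 8.82, 8.93 and 5.55 for E1-KO, 6.86, 6.68 and 6.26 for E2-KO and 9.49, 5.16 and 5.36 for D-KO. Here all genotypes overlapped except that E2-KO lay below WT, which did not hold with library totals. The split by position and that at the stem-loop do not coincide. Among members ending near the stem-loop, for example, Hist1h3h, Hist1h3i and Hist1h2bk lie in this block and Hist1h3c and Hist1h1a in the other. Outside chromosome 13, Hist3h2a and Hist3h2ba of cluster Hist3 summed to 0 to 1.13 CPM for WT, 0.101 to 0.558 for E1-KO, 0.643 to 1.57 for E2-KO and 0.974 to 1.52 for D-KO, so E1-KO lay below E2-KO and D-KO. Hist4h4 had 21 counts in the WT libraries together, 9 for E1-KO, 3 for E2-KO and 4 for D-KO.

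Per kilobase of the M21 model, the mean level over the 12 libraries was 8.94 CPM per kb for Hist1h2bc, 3.84 for Hist1h1c, 3.12 for Hist1h2ae, 2.67 for Hist1h4i and 2.62 for Hist1h3c. Those levels depend on the model and on how many reads align uniquely. In 15 of the 40 members fewer than 50% of the 50-base stretches are absent from the M21 transcripts of other genes. The range starts at 2.75% for Hist1h2bq. The rest of the genome was not searched for copies. Multiply aligned reads, which stay out of the counts, amounted to 0.429 to 0.542 times the counted reads. The read length is not given in the sources used here. Counts of members with few such stretches, such as Hist1h2bq, Hist1h3h (6.08%) and Hist1h2aj (6.93%), are therefore uncertain in how they were split.

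Beside the counts of called genes in the lists that follow, the share of all genes tested that fell was 18.5% for E1-KO, 18.6% for E2-KO and 12.2% for D-KO, and the share that rose was 15.7%, 16.7% and 10.6%. Of 10 genes for histone gene transcription, 3 fell and 1 rose in E1-KO, 4 fell and 1 rose in E2-KO, and 1 fell and 1 rose in D-KO, with median log2 fold changes of -0.13, -0.06 and -0.09. Npat, the coactivator that cyclin E and Cdk2 activate at the histone genes, stood at 134, 70.8 and 168 CPM for WT, 68.7, 76.4 and 66.8 for E1-KO, 55.4, 60.4 and 70.2 for E2-KO and 83.3, 86.0 and 89.4 for D-KO. It fell in E1-KO by 0.81 ± 0.22 (adjusted p = 0.0121) and in E2-KO by 1.00 ± 0.22 (adjusted p = 0.00388), and WT replicate 2 lay inside the KO range. Casp8ap2 (FLASH), which works in both histone transcription and 3′ end cleavage, stood at 194, 104 and 176 CPM for WT, 99.7, 108 and 95.8 for E1-KO, 36.9, 50.0 and 48.9 for E2-KO and 60.6, 57.6 and 58.9 for D-KO. It fell by 0.64 ± 0.18, 1.80 ± 0.19 and 1.42 ± 0.19 (adjusted p = 0.0158, 1.28e-05 and 0.000129), and it was higher in E1-KO than in E2-KO by 1.16 ± 0.19 (adjusted p = 0.0115). Ccne2, a cyclin E, fell in E1-KO by 1.24 ± 0.19 (adjusted p = 0.000220) and in E2-KO by 0.97 ± 0.18 (adjusted p = 0.00136), and Hinfp, an activator of H4 genes, rose by 0.64 ± 0.11 and 0.46 ± 0.12 (adjusted p = 0.000825 and 0.00764).

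Of 18 genes for histone 3′ end processing and decay, 5 fell in E1-KO and 6 for E2-KO with none rising, and 2 fell and 1 rose in D-KO, with medians of -0.16, -0.20 and -0.05. The falls compare with 18.5%, 18.6% and 12.2% of all genes tested and the rises with 15.7%, 16.7% and 10.6%. Slbp stood at 157, 122 and 115 CPM for WT, 93.8, 96.8 and 94.0 for E1-KO, 93.4, 96.3 and 101 for E2-KO and 115, 106 and 109 for D-KO. It fell in E1-KO by 0.47 ± 0.11 (adjusted p = 0.00630) and in E2-KO by 0.44 ± 0.11 (adjusted p = 0.00906), with -0.26 ± 0.11 for D-KO (adjusted p = 0.120). Ncbp1, a subunit of the nuclear cap-binding complex, fell by 0.58 ± 0.12 and 0.46 ± 0.12 for E1-KO and E2-KO. Cpsf2, of the cleavage complex, fell there by 0.74 ± 0.15 and 0.66 ± 0.15, and Zcchc11 (Tut4), which adds uridines to histone mRNA ends, by 0.64 ± 0.15 and 0.61 ± 0.15. None of the 18 was called between E1-KO and E2-KO, where their median difference was -0.01.

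Of 35 genes for S phase and replication, 12 fell and 2 rose in E1-KO, 7 fell and 2 rose in E2-KO and 3 fell and 2 rose in D-KO, with medians of -0.17, -0.02 and 0.14. Among all genes tested 18.5%, 18.6% and 12.2% fell, so the 7 falls in E2-KO and the 3 in D-KO are near or below the background. Rpa1, which coats single-stranded DNA, fell by 1.05 ± 0.10, 0.87 ± 0.10 and 0.74 ± 0.10. Mcm6, of the replicative helicase, fell by 0.72 ± 0.12 for E1-KO and 0.61 ± 0.12 for E2-KO, and Rrm1, of ribonucleotide reductase, by 0.75 ± 0.16 and 0.63 ± 0.16. D-KO was higher than E1-KO in 9 of the 35 (8.43% of all genes) and lower in none (7.52% of all). None of the 35 was called between E1-KO and E2-KO, where their median difference was -0.09.

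Of 18 chaperone and deposition genes, 3 rose and 3 fell in E1-KO, 2 rose and 1 fell in E2-KO, and 3 rose and none fell in D-KO, with medians of -0.08, -0.10 and 0.03. Asf1a, a chaperone of H3 and H4, rose by 0.66 ± 0.11, 0.73 ± 0.11 and 0.89 ± 0.11, and Daxx, a chaperone of the variant H3.3, by 0.35 ± 0.10, 0.56 ± 0.10 and 0.54 ± 0.10. Supt16, of the FACT complex, fell by 0.59 ± 0.14 for E1-KO and 0.49 ± 0.14 for E2-KO. Variant histones mostly have mRNAs that carry poly(A) tails and are made outside S phase too. Of 11, 5 rose and none fell in E1-KO, 5 rose and none fell in E2-KO, and 2 rose and 1 fell in D-KO, with medians of 0.15, 0.38 and 0.13. H1f0, the linker histone of resting cells, rose by 0.87 ± 0.15 for E1-KO and 1.182 ± 0.15 for E2-KO (adjusted p = 0.000629 and 5.91e-05), and D-KO was lower than E2-KO by 0.78 ± 0.15 (adjusted p = 0.00981). H3f3a, which encodes H3.3, rose by 0.60 ± 0.14, 0.83 ± 0.14 and 0.71 ± 0.14, and H2afy2, a macroH2A, by 0.38 ± 0.11, 0.48 ± 0.11 and 0.63 ± 0.11.

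**Figure D5:**
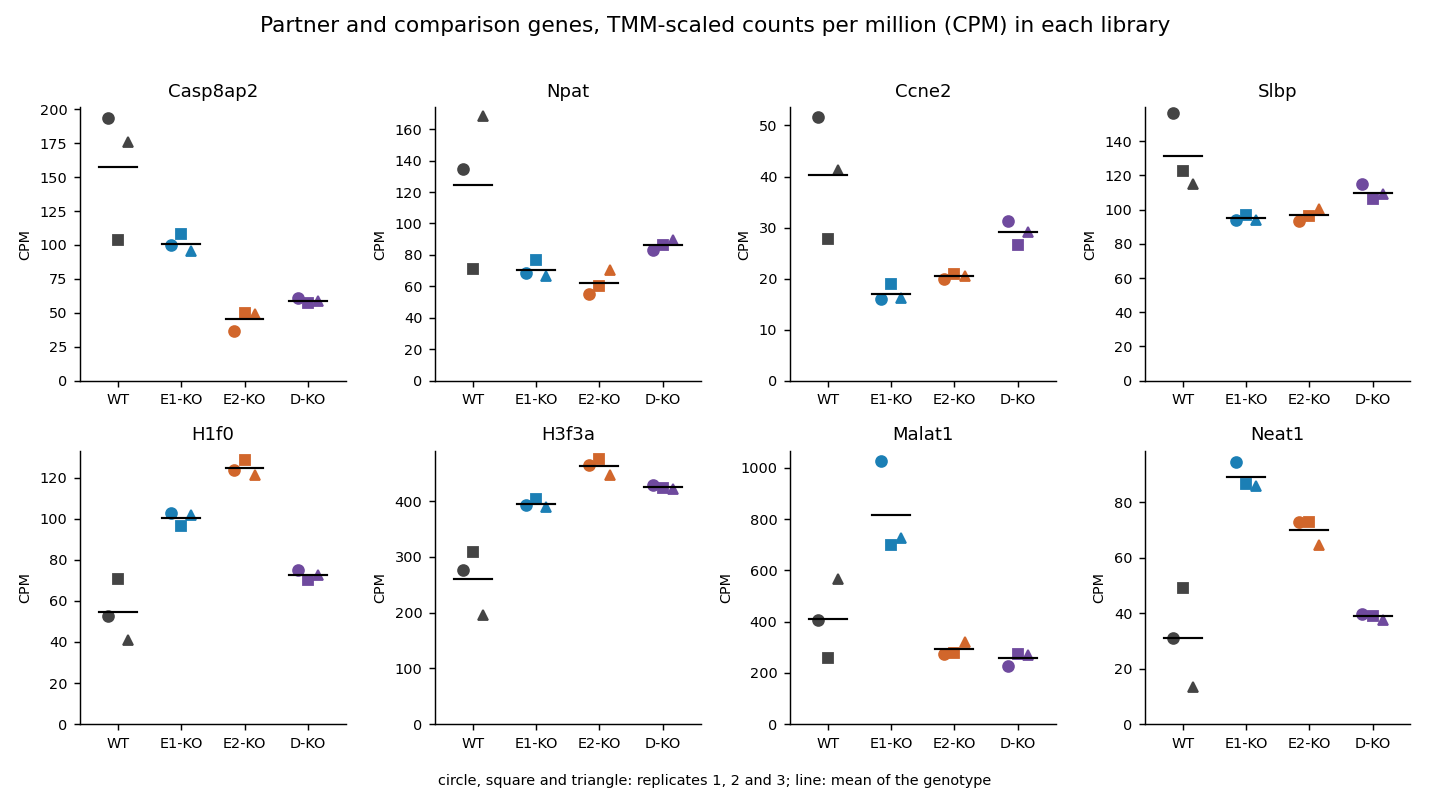
Level of 8 partner or comparison genes in each library (vertical axis, TMM-scaled CPM from 0) by genotype (horizontal axis); symbols are replicates 1 to 3 and lines are means. Casp8ap2 is lowest in E2-KO and D-KO, Malat1 is at 697 CPM or more in E1-KO and at 566 or less elsewhere, and H1f0 is highest in E2-KO.

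RNAs that lack a poly(A) tail, or have a form without it, were counted as a property of the libraries. The 10 of them summed to 312 to 586 CPM for WT, 788 to 1125 for E1-KO, 349 to 389 for E2-KO and 269 to 317 for D-KO. Malat1, a nuclear RNA, made up most of this, with 407, 256 and 566 CPM for WT, 1026, 697 and 724 for E1-KO, 274, 277 and 322 for E2-KO and 225, 273 and 271 for D-KO. It was higher in E1-KO than in E2-KO by 1.49 ± 0.23 (adjusted p = 0.00844). Rn7sk, a polymerase III RNA, stood at 0.371 to 1.31 CPM for WT, 1.41 to 2.85 for E1-KO, 0 to 0.190 for E2-KO and 0.101 to 1.27 for D-KO, where 3 counts stand for 0.222 to 0.356 CPM per library. Its difference between E1-KO and E2-KO was 4.24 ± 0.99 (adjusted p = 0.0835). Neat1 rose in E1-KO by 1.501 ± 0.30 and in E2-KO by 1.15 ± 0.30. Rpph1, the RNA of ribonuclease P, fell by 1.495 ± 0.43 for E1-KO and 1.54 ± 0.44 for E2-KO, so these RNAs did not move together. The part of RNA capture in the histone results was not tested. Library differences with GC content ran beside the genotypes as well, with a Spearman correlation across genes of -0.56 to 0.14 for WT, 0.25 to 0.35 for E1-KO, 0.30 to 0.43 for E2-KO and -0.10 to -0.02 for D-KO.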

How the data were processed

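RNA-seq read counts of 12 libraries were used, 3 for each of 4 genotypes (WT and the lines E1-KO, D-KO and E2-KO), which the titles name. The tables hold unnormalized counts for each gene symbol, as deposited by the authors, who used HISAT2 2.1.0, HTSeq 0.9.1 and DESeq2 1.18.1 on mm10, per the submitters' processing notes. For the annotation, strand setting, read length and RNA selection, the entry is: not given in the sources used here. What HTSeq assigned to no gene, such as reads with no feature, at 1.11 to 1.20 times the counted reads, stayed out of library sizes and tests. The 4C and ChIP samples were not analysed here.

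Tests used edgeR 4.0.16 in R 4.3.3: filterByExpr on genotype (16765 genes), TMM scaling and a robust quasi-likelihood fit of 1 mean for each genotype over the 12 libraries, Benjamini-Hochberg adjustment over all genes tested, calls below 0.05 and no fold minimum. There were 7 contrasts. Standard errors are the log2 fold change over the square root of F. Alternatives were RLE size factors, library totals, DESeq2 1.42.0, limma 3.58.1 with quality weights, no filter, only the genotypes compared, a replicate block, GC and length trends removed (97.1% of genes tested had both), WT replicate 2 alone and leaving out each library. That edgeR script was first tested on simulated data. The simulated libraries had the same spread in every genotype, unlike the real ones, so that test does not cover the unequal spread of WT and KO libraries. Gene models are GENCODE M21, and sequences are from RefSeq GRCm38.p6, both of the build mm10. Every library pair of a genotype differed by more than counting error.

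Members and gene lists were chosen with earlier results of these data known. Genes with values in every library were the 2 members of highest mean CPM in each class, the 3 members of smallest adjusted p in each pairwise contrast and up to 3 genes per partner list, plus Slbp and Npat. Hist1h2bk and Hist1h3e were added because they were called.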

Additional observations from a re-analysis of the deposited data

Results flagged for a closer look

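The effect of D-KO differed from the sum of the effects of E1-KO and E2-KO, by the interaction term of the edgeR fit, in 3 of 14 histone genes tested, all above 0. Of all genes tested, 18.1% had a term called above 0 and 17.1% one called below it, so 3 of 14 is near the background. The term was 2.28 on the log2 scale for Hist1h1a, with levels of 1.96 to 3.86 CPM in WT and 0.682 to 1.42 CPM in D-KO. For Hist1h1c it was 1.39, where E1-KO lay below and D-KO above all WT libraries under TMM scaling, and E1-KO overlapped WT with library totals. For Hist1h4i it was 2.26, where E1-KO stood at 0.474 to 1.12 CPM and D-KO at 1.72 to 4.14 CPM. The adjusted p of Hist1h4i was above 0.05 in 8 of 21 alternatives, with a highest value of 0.100, that of Hist1h1a in 4 of 21, with 0.0846, and that of Hist1h1c in 1 of 21, with 0.0706.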

How the results depend on the processing

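Of 26 calls over the 7 contrasts, 6 held in every alternative run and 20 were lost in at least 1, and no value changed its sign past the threshold. Over single genes and medians, 1520 values counted as unchanged, 105 fell short of the threshold, 35 passed it newly and 6 medians moved by more than the spread between replicates. The unchanged values include medians that moved by less than that spread. They also include genes without a call in the main fit whose sign changed. For example, Hist1h3h in E2-KO against WT ranged from -1.20 to 0.64. With limma, the members called were 0 in E1-KO against WT, 1 in D-KO against WT and 7 in E1-KO against E2-KO, instead of 2, 6 and 3, while it called 31.8%, 18.9% and 17.1% of all genes, instead of 34.2%, 22.8% and 0.597%. With only the libraries of the genotypes compared they were 0 of 14, 3 of 11 and 5 of 9 members, with 15.9%, 9.09% and 21.4% of all genes. With WT replicate 2 as the only WT library, assumed to vary like the other groups, they were 5, 11 and 13 for E1-KO, E2-KO and D-KO against WT, 10 for D-KO against E1-KO and 9 for E1-KO against E2-KO, with 27 members tested. The shares of all genes called there were 30.8%, 30.1%, 34.8%, 44.8% and 19.3%, and the cause was not tested. On leaving out each of the 12 libraries in turn, the members called ranged from 0 to 5 for E1-KO against WT, from 5 to 10 for E2-KO against WT and from 3 to 8 for D-KO against WT. The members called ranged from 1 to 9 for D-KO against E1-KO, 0 to 4 for E1-KO against E2-KO and 1 to 3 for the interaction (1 without E1-KO replicate 1 or 3), and stayed at 0 for D-KO against E2-KO. The shares of all genes called were 6.82% to 28.8%, 0.0929% to 4.20%, 26.8% to 50.7% and 1.32% to 16.8% in that order. In E1-KO against WT, 5 members were called without WT replicate 1 (28.3% of all genes). There were 4 without WT replicate 2 (51.1%), WT replicate 3 (33.9%) or E2-KO replicate 2 (30.5%), and 0 without E1-KO replicate 3 (23.3%). For E2-KO against WT, 10 were called without WT replicate 1 (30.2% of all genes). For D-KO against WT, leaving out D-KO replicate 3 left 3 called (14.4% of all genes). Without the 2 members with most counts in each class, the summed level was 21.6 CPM for WT, 13.8 for E1-KO, 10.9 for E2-KO and 11.65 for D-KO. Same-numbered libraries did not deviate together (18 correlations from -0.073 to 0.075, with 2 of 12 libraries closest to their own number), so the numbers do not pair the libraries. With the number as a replicate block, 1 member was called in E1-KO against E2-KO instead of 3, with 0.42% of all genes called instead of 0.597%. Depth limits the 26 untested members, where 3 counts stand for 0.222 to 0.356 CPM in a library.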
